A study of Rattus norvegicus with 2 samples.

Results

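Voltage-gated sodium and calcium channel subunit genes were taken from the gene table as every row whose symbol is Scn, a number and a or b, or begins with Cacna1, Cacna2d, Cacnb or Cacng. There were 40 such rows among 21224, each symbol on 1 row. RNA came from cortical neurons of rat embryos (E18) treated with a small interfering RNA against Ythdf3 (siYthdf3, 1 library) or with a negative control one (siNC, 1 library). Ythdf3 encodes a reader of the m6A mark on messenger RNA, and no label names a hypoxic sample, an allele or a rat strain. Since each group is a single library, no difference below could be checked against replicates and p-values are not given.

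Voltage-gated sodium channels carry the rising phase of the action potential and calcium channels turn depolarisation into calcium entry, which drives transmitter release and gene expression. Each channel is built around 1 pore-forming alpha subunit, and auxiliary subunits set its surface level, gating and place in the membrane. Cortical neurons change isoforms as they mature: Scn3a and Scn3b are known as embryonic forms, Scn2a comes early and stays, and Scn1a and Scn8a come to the fore after birth. Among calcium channels, N-type channels (Cacna1b) share presynaptic release early and P/Q-type channels (Cacna1a) take over much of it later. Most Cacng genes encode auxiliary proteins of AMPA-type glutamate receptors, although the family is named after a calcium channel subunit.

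Reads assigned to genes numbered 22586543 in the siYthdf3 library and 15392218 in the siNC library. Levels are FPKM, read counts corrected for gene length and library depth. Ratios are siYthdf3 over siNC, with exact 95% intervals from the reads that reflect counting alone, not how much samples vary. Differences on the log2 scale were taken after adding 0.5 FPKM to both values, which makes those of low genes smaller. Ythdf3 itself was at 6.93 FPKM in siYthdf3 against 9.38 FPKM in siNC (ratio 0.739, interval 0.675 to 0.809). All 10 neuronal markers looked at (Rbfox3, Tubb3, Map2 and others) were measured, at 1202 FPKM summed in siYthdf3 and 1049 FPKM in siNC. Markers of other cells were present too, at 239 FPKM in siYthdf3 against 177 FPKM in siNC for 8 astrocyte genes and, for cycling cells, at 103 FPKM in siYthdf3 against 211 FPKM in siNC over 6 genes. The astrocyte sum rests largely on Gfap, at 141 FPKM in siYthdf3 against 68.2 FPKM in siNC. The 8 astrocyte genes had a median log2 ratio of -0.14, with 5 below 0. Their intervals lay above 1 for 2 and below 1 for 3. Among all genes that averaged 1 FPKM or more, 51.9% were below 0, and intervals lay above 1 for 20% and below 1 for 22.2%.

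The channel genes were modestly higher in the siYthdf3 library. The filter on low values, an average of 1 FPKM or more across the libraries, was passed by 26 of the 40 genes, and each of the 26 was at or above 1 FPKM in both. Their median log2 ratio was 0.26, with quartiles of 0.08 and 0.43, where the 13172 genes tested had a median of -0.01 and quartiles of -0.17 and 0.14. Of the 26, 22 were above 0, where 48.1% of all genes tested were. Counting intervals lay above 1 for 16 members, against 20% of all genes tested, and below 1 for 1 member, against 22.2%. Members are mostly long genes, which at a given FPKM carry more reads and have narrower intervals than shorter genes. Differences were small in size: 9 of the 26 had a log2 ratio of 0.32 or more, against 8.78% of all genes tested, and 1 was at or beyond the same size below 0, against 11.4%. At 1.5-fold, 1 member was higher and 0 were lower, against 2.41% and 3.95% of all genes tested, a share of members near that of other genes, and 0 members reached 2-fold in either direction, against 0.706% higher and 0.896% lower.

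**Figure D1:**
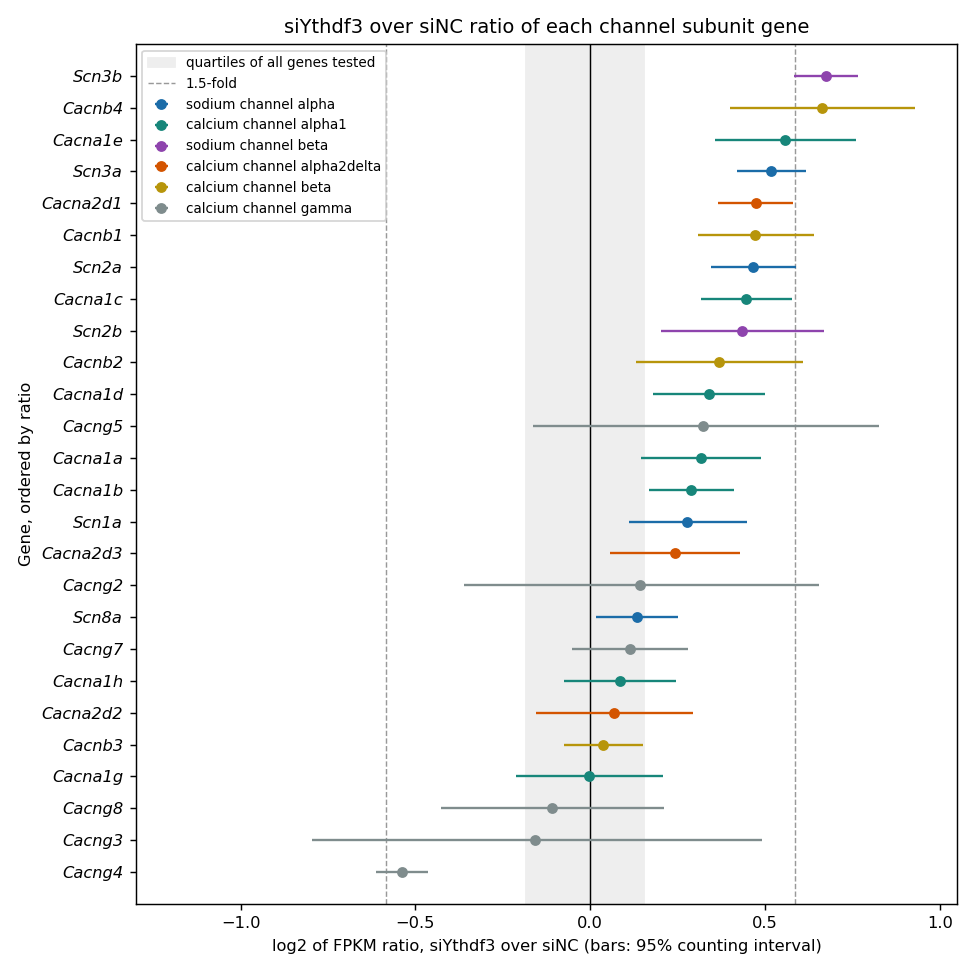
Ratio of siYthdf3 over siNC for each of the 26 measured genes, as the log2 of the FPKM ratio (horizontal) with 95% counting intervals, coloured by subunit class; the grey band holds the quartiles of all genes tested and the dashed lines mark 1.5-fold. Scn3b stood highest at 1.60 and Cacng4 lowest at 0.688, and 16 intervals lay above 1.

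By level, the order of the genes differed between the libraries at the top. In siYthdf3 the highest was Scn3b at 36.7 FPKM (interval 35.5 to 38.0), followed by Cacng4 at 35.1 FPKM (33.9 to 36.4), and their intervals overlap. In siNC Cacng4 stood alone at 51.0 FPKM (49.2 to 52.9), above Cacnb3 at 23.4 FPKM (22.0 to 24.8) and Scn3b at 23.0 FPKM (21.8 to 24.3), which did not differ beyond counting error. Cacna2d1 followed at 24.7 FPKM in siYthdf3, level with Cacnb3 at 24.0 FPKM, and was at 17.8 FPKM in siNC. The lowest measured gene was Cacng3 in both libraries, at 1.01 FPKM in siYthdf3 against 1.12 FPKM in siNC.

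**Figure D2:**
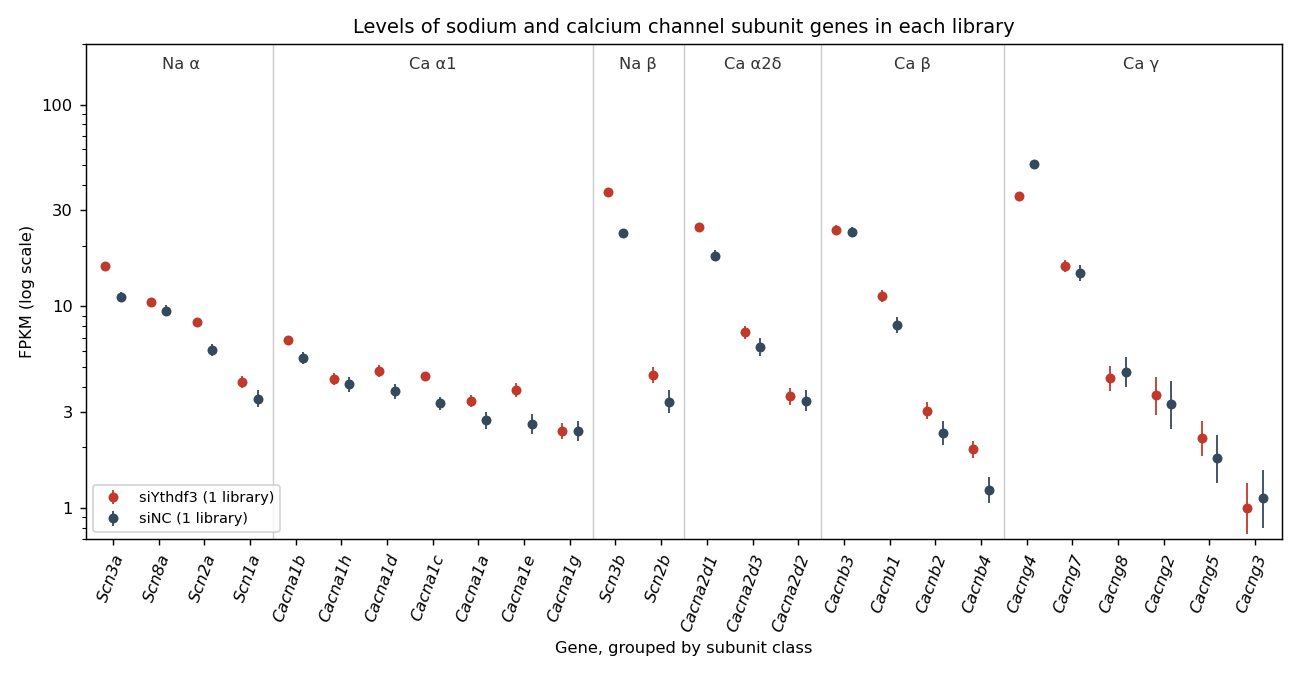
FPKM (log scale) of the 26 measured genes in the siYthdf3 library (red) and the siNC library (dark), grouped by subunit class and ordered by the siNC level; bars are exact 95% Poisson intervals of the reads. Pore-forming genes lay between 2.41 and 15.9 FPKM in siYthdf3, and auxiliary genes spread from 1.01 to 36.7 FPKM.

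Of 10 sodium channel alpha subunit genes, 4 were measured, and all 4 had an interval above 1. Scn3a, the embryonic isoform, was at 15.9 FPKM in siYthdf3 against 11.1 FPKM in siNC (ratio 1.43, interval 1.34 to 1.53). Scn2a, the early isoform of axons and the initial segment, was at 8.38 FPKM in siYthdf3 against 6.07 FPKM in siNC (ratio 1.38, interval 1.27 to 1.504). The isoforms of the mature brain differed less. Scn1a, which is prominent in inhibitory interneurons, was at 4.24 FPKM in siYthdf3 against 3.50 FPKM in siNC (ratio 1.21, interval 1.08 to 1.36). Scn8a, the main isoform of mature initial segments and nodes of Ranvier, was at 10.5 FPKM in siYthdf3 against 9.54 FPKM in siNC (ratio 1.10, interval 1.01 to 1.19). Scn3a was the most abundant alpha subunit in both libraries, with 39.0% of the summed alpha subunit FPKM in siYthdf3 and 34.9% in siNC, and the share of Scn8a was 25.6% in siYthdf3 and 29.9% in siNC. Values per gene do not separate the neonatal and adult exons that several of these genes carry.

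The genes for Scn3a and Scn2a lie head to head on chromosome 3 of the deposited table, Scn3a from 50148139 to 50258119 on the minus strand and Scn2a from 50302877 to 50435212 on the plus strand, with 44.8 kb between them. Scn1a, Scn9a and Scn7a follow further along the same chromosome, on the minus strand. Which genome build these coordinates belong to is not stated in the labels or headers. The promoter windows of the neighbours that stood higher, Scn3a and Scn2a, and of Scn8a, which differed least among the alpha subunits, are shown because they differ in base composition. They are RefSeq sequences of the GRCr8 assembly, 250 bases before to 50 after the start, at chr3:70666149-70666448 (minus strand), chr3:70710706-70711005 (plus strand) and chr7:133860977-133861276 (plus strand). Capitals mark GC boxes (GGGCGG on either strand, the binding motif of Sp1).
Scn3a: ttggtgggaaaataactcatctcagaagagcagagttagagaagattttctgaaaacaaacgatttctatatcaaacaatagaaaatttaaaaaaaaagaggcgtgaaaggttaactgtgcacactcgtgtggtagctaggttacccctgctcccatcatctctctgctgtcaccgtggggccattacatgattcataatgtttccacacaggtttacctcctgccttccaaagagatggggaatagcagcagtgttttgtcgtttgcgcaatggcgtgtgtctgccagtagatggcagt
Scn2a: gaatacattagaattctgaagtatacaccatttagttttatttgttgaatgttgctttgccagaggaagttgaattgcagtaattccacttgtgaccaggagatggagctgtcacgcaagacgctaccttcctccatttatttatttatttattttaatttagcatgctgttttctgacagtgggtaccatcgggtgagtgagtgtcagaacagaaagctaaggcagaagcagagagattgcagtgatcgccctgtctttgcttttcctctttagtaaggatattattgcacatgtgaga
Scn8a: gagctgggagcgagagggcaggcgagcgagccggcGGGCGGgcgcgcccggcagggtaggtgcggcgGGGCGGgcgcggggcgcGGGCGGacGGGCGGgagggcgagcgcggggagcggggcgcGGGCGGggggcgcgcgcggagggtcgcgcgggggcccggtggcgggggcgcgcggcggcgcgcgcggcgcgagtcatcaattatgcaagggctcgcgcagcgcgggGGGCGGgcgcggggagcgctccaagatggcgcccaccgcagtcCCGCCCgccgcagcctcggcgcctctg
Scn3a had 7 CG dinucleotides and 0 GC boxes and Scn2a had 4 and 0, while Scn8a had 60 CG dinucleotides and 7 GC boxes. Promoters were found for 27 of the 40 members, and 14 of the 27 (51.9%) held a GC box. Of 27457 promoters of the same length, which include those of genes not measured, 34.9% did. Among measured members with a promoter it was 10 of 18 (55.6%), a smaller share than the 5998 of 9495 over all genes tested. Among measured members, the 10 with a GC box had log2 ratios from -0.11 to 0.46 with a median of 0.25. The 8 without one had log2 ratios from -0.10 to 0.50 with a median of 0.39, so the ranges overlap almost fully. Cacna2d1, with 7 GC boxes like Scn8a, stood at 0.46. Over all genes tested that had a promoter, the median was -0.016 for 5998 with a GC box and -0.021 for 3497 without one. The motif of TEAD factors, the partners of the Wwtr1 product named in the study's title, was searched as GGAATG on either strand. It occurred in 4 of 27 member promoters (14.8%), those of Cacna1c, Cacna1e, Cacna1s and Cacng8, against 13.9% of all promoters. The cyclic AMP response element TGACGTCA occurred in 0 of the 27, against 1.91% of all. A match of letters is not a binding site, and none of these counts was tested.

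Of 10 pore-forming calcium channel (alpha1) genes, 7 were measured, with a median log2 ratio of 0.27. The 5 measured genes of high-voltage-activated channels were all higher in siYthdf3, with intervals above 1. Cacna1e, which encodes the R-type channel, was at 3.85 FPKM in siYthdf3 against 2.62 FPKM in siNC (ratio 1.47, interval 1.28 to 1.69). Cacna1c and Cacna1d encode L-type channels, which couple activity to gene expression. Cacna1c was at 4.51 FPKM in siYthdf3 against 3.31 FPKM in siNC (ratio 1.36, interval 1.246 to 1.49), and Cacna1d was at 4.80 FPKM in siYthdf3 against 3.79 FPKM in siNC (ratio 1.27, interval 1.13 to 1.41). The presynaptic channels differed by similar amounts. Cacna1a was at 3.39 FPKM in siYthdf3 against 2.72 FPKM in siNC (ratio 1.24, interval 1.11 to 1.40), and Cacna1b, the most abundant alpha1 gene in both libraries, was at 6.80 FPKM in siYthdf3 against 5.56 FPKM in siNC (ratio 1.22, interval 1.12 to 1.33).

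The T-type genes, whose channels open at low voltage, had no common direction. Cacna1g was at 2.41 FPKM in both libraries (ratio 0.997, interval 0.862 to 1.15). Cacna1h was at 4.37 FPKM in siYthdf3 against 4.12 FPKM in siNC (ratio 1.06, interval 0.949 to 1.18). Both intervals include 1. Cacna1i lay below the filter, at 1.08 FPKM in siYthdf3 against 0.577 FPKM in siNC from 170 siYthdf3 and 62 siNC reads (ratio 1.87, interval 1.39 to 2.54). That ratio is higher than that of any measured alpha1 gene, but its interval overlaps others, that of Cacna1e among them. Without strand information, reads of Cacna1c, Cacna1d and Cacna1h cannot be told apart from those of genes that overlap them on the opposite strand, Dcp1b, Dcp1a and Tpsg1 among them.

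Among the sodium channel beta subunits, which bind alpha subunits and act as adhesion proteins, 2 of 4 were measured and both were higher. Scn3b, the beta subunit typical of embryonic neurons, was at 36.7 FPKM in siYthdf3 against 23.0 FPKM in siNC (ratio 1.60, interval 1.497 to 1.70) on 3226 siYthdf3 and 1378 siNC reads. It was the only member past 1.5-fold on the log2(FPKM + 0.5) scale, at 0.66, which is percentile 98.2 of all genes tested. Scn2b, which is linked to alpha subunits by a disulfide bond, was at 4.56 FPKM in siYthdf3 against 3.37 FPKM in siNC (ratio 1.35, interval 1.15 to 1.59). Scn4b, a beta subunit of mature neurons, was low, at 0.200 FPKM in siYthdf3 against 0.136 FPKM in siNC from 26 siYthdf3 and 12 siNC reads, and its interval includes 1.

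Of the alpha2delta genes, whose products carry channels to the surface, 3 of 4 were measured. Cacna2d1, which encodes the binding partner of gabapentin, was at 24.7 FPKM in siYthdf3 against 17.8 FPKM in siNC (ratio 1.39, interval 1.29 to 1.496). Cacna2d3 was at 7.43 FPKM in siYthdf3 against 6.29 FPKM in siNC (ratio 1.18, interval 1.04 to 1.35). Cacna2d2 was at 3.58 FPKM in siYthdf3 against 3.41 FPKM in siNC, with an interval that includes 1 (0.898 to 1.23). The most abundant of the class thus also had the highest ratio, although the intervals of Cacna2d1 and Cacna2d3 overlap. Cacna2d1 made up 69.1% of the summed alpha2delta FPKM in siYthdf3 and 64.8% in siNC.

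All 4 cytoplasmic beta subunit genes of calcium channels were measured. By ratio, the most abundant gene differed least and the least abundant most, although the intervals of Cacnb4, Cacnb1 and Cacnb2 overlap. Cacnb3, the most abundant, was at 24.0 FPKM in siYthdf3 against 23.4 FPKM in siNC (ratio 1.03, interval 0.949 to 1.11). Cacnb1 was at 11.3 FPKM in siYthdf3 against 8.12 FPKM in siNC (ratio 1.39, interval 1.24 to 1.56), and Cacnb2 at 3.05 FPKM in siYthdf3 against 2.36 FPKM in siNC (ratio 1.29, interval 1.09 to 1.52). Cacnb4, the least abundant, was at 1.95 FPKM in siYthdf3 against 1.23 FPKM in siNC (ratio 1.58, interval 1.32 to 1.90). Its log2 ratio of 0.50 lay short of 1.5-fold with 0.5 FPKM added and was 0.62 with 0.1 FPKM added. The share of Cacnb3 in the summed beta subunit FPKM was 59.6% in siYthdf3 and 66.6% in siNC.

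The gamma genes had no common direction, with a median log2 ratio of 0.01 over 6 measured of 8 and 3 members on each side of 0. All 6 measured genes are of the AMPA receptor kind. Cacng4, by far the most abundant of them, was at 35.1 FPKM in siYthdf3 against 51.0 FPKM in siNC (ratio 0.688, interval 0.654 to 0.724) on 3054 siYthdf3 and 3023 siNC reads. It was the only channel gene with an interval below 1 among those measured, and its log2 ratio of -0.53 is percentile 4.76 of all genes tested. The other 5 had intervals that include 1. Cacng7 was at 15.9 FPKM in siYthdf3 against 14.7 FPKM in siNC, Cacng8 at 4.40 FPKM in siYthdf3 against 4.74 FPKM in siNC, and Cacng2 (stargazin) at 3.63 FPKM in siYthdf3 against 3.29 FPKM in siNC. Cacng5 was at 2.22 FPKM in siYthdf3 against 1.77 FPKM in siNC, from 101 siYthdf3 and 55 siNC reads, and Cacng3 rested on 50 siYthdf3 and 38 siNC reads. Cacng4 and Cacng5 are neighbours on chromosome 10 of the table, on the same strand, with 83.1 kb between them, and lay on opposite sides of 0.

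Cacng4 is also known from glial precursors, and in the siYthdf3 library most markers of the oligodendrocyte lineage and of progenitors had lower values too. The 7 oligodendrocyte lineage markers summed to 18.7 FPKM in siYthdf3 against 31.1 FPKM in siNC. Of their measured members 6 of 6 were below 0, against 51.9% of all genes tested, and 4 had an interval below 1. The intervals of Mbp (0.606 to 1.21) and Sox10 (0.471 to 1.02) include 1. The 6 progenitor markers summed to 512 FPKM in siYthdf3 against 930 FPKM in siNC, of which Vim made up 357 FPKM in siYthdf3 and 708 FPKM in siNC. Of these 6 markers 5 had an interval below 1, against 22.2% of all genes tested. Hes5 had a log2 ratio of 0.097 with an interval that includes 1. No defining marker of either list was at 0. Their part in the value of Cacng4 was not tested, and in bulk RNA fewer cells of a type and less RNA per cell cannot be told apart.

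Pore-forming and auxiliary genes had similar medians. The 11 measured pore-forming genes had a median log2 ratio of 0.27 (range -0.0032 to 0.50) and the 15 measured auxiliary genes one of 0.23 (range -0.53 to 0.66), a difference of 0.05. The sign of that difference depended on the gamma genes and on gene length: it was -0.11 with the gamma genes left out of the auxiliary class and -0.07 after a length trend was removed. Intervals lay above 1 for 9 of 11 pore-forming and 7 of 15 auxiliary genes, against 20% of all genes tested. Among the 9 auxiliary genes that are not gamma genes, 7 had such an interval. Pore-forming genes were longer, with a median of 8475 bases against 3815 bases for auxiliary genes, which narrows their intervals at a given FPKM. Sodium channel genes had a median of 0.41 over 6 measured of 14, and calcium channel genes one of 0.24 over 20 measured of 26.

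By their medians, the early isoforms listed here differed more than the mature ones listed, by 0.25 for the sodium channel genes alone. Auxiliary calcium channel genes were in neither list. The early list (Scn2a, Scn3a, Scn3b and Cacna1b) had 0.47 as its median log2 ratio over 4 genes, and the mature list one of 0.26 over the 4 of its genes that were measured (Scn1a, Scn8a, Scn2b and Cacna1a), a difference of 0.21. The ranges overlap, from 0.27 to 0.66 in the early list and from 0.13 to 0.38 in the mature list. Within the libraries, Scn3a stood to Scn8a as 1.52 (interval 1.43 to 1.62) in siYthdf3 and 1.17 (interval 1.07 to 1.27) in siNC, and Scn2a to Scn8a as 0.801 (interval 0.747 to 0.859) in siYthdf3 and 0.636 (interval 0.579 to 0.699) in siNC. Those intervals do not overlap, and both comparisons share Scn8a. The FPKM ratio of Scn3b to Scn2b was 8.05 (interval 7.30 to 8.90) in siYthdf3 and 6.82 (interval 5.93 to 7.88) in siNC, and that of Scn3a to Scn1a was 3.76 (interval 3.47 to 4.08) in siYthdf3 and 3.19 (interval 2.86 to 3.56) in siNC, with intervals that overlap. The calcium channel pair showed no such difference, since Cacna1b stood to Cacna1a as 2.004 (interval 1.84 to 2.19) in siYthdf3 and 2.04 (interval 1.82 to 2.30) in siNC. Both libraries thus held early above mature transcripts for 5 of 6 pairs, with Scn2a and Scn8a as the exception.

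**Figure D3:**
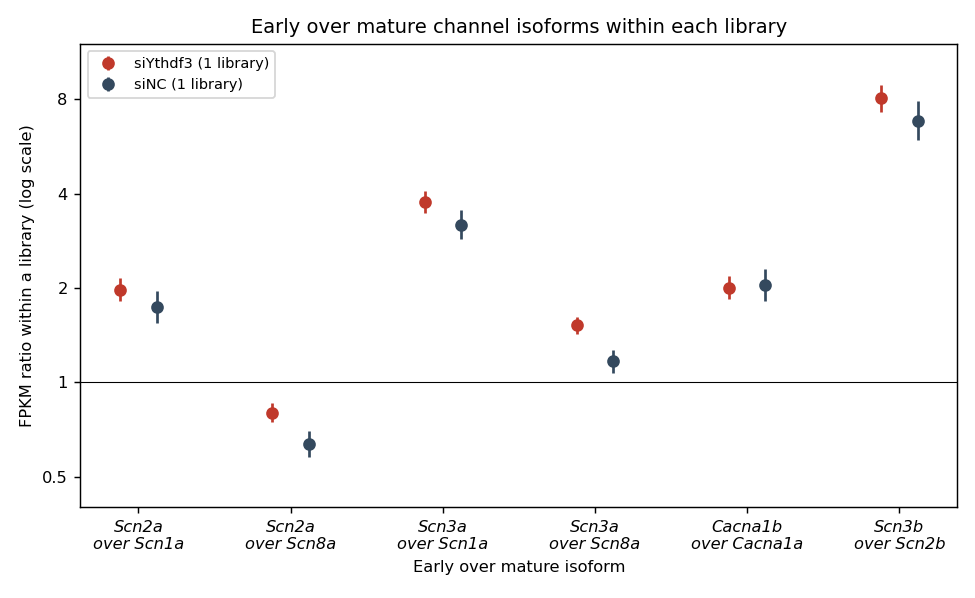
FPKM ratio (log scale) of an early over a mature isoform within each library, siYthdf3 in red and siNC dark, for 6 pairs; bars are exact 95% counting intervals. The intervals of the 2 libraries are apart for Scn2a over Scn8a and Scn3a over Scn8a and overlap for the other 4 pairs.

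Below the filter lay 14 members, none above 1.08 FPKM in siYthdf3, and 11 of them had intervals that include 1. Besides Cacna1i, the interval of Scn9a, an isoform of peripheral sensory neurons, lay above 1. Scn9a was at 0.525 FPKM in siYthdf3 against 0.298 FPKM in siNC (ratio 1.76, interval 1.24 to 2.53). Scn7a, which encodes a sodium sensor of glia, was at 0.664 FPKM in siYthdf3 against 0.603 FPKM in siNC. The muscle genes Scn4a, Cacna1s, Cacng1 and Cacng6, the sensory neuron genes Scn10a and Scn11a and the retinal genes Cacna1f and Cacna2d4 had at most 8 reads in either library. Cacna2d4, Cacng1 and Scn10a had 0 reads in siNC, which allows up to 0.0444, 0.150 and 0.0300 FPKM.

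Channel genes are long, and the longest genes of the whole table had the highest median ratios, although the bin medians did not climb evenly: the shortest genes, up to 365 bases, had a median log2 ratio of 0.027 and the next bin one of -0.14. The measured members had a median length of 5666 bases, against 2917 bases over all genes tested, and 12 of the 26 lay in the 2 longest of 20 length bins, whose median log2 ratios were 0.07 and 0.14. With the length trend removed, the member median was 0.21 and 21 of 26 were above 0, against 6613 of 13172 genes. Again 9 members were at 0.32 or more, against 9.35% of all genes tested. The pore-forming calcium channel genes were most affected, with a median of 0.14 in place of 0.27, while Scn3b and Cacng4, of middling length, kept 0.65 and -0.54.

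**Figure D4:**
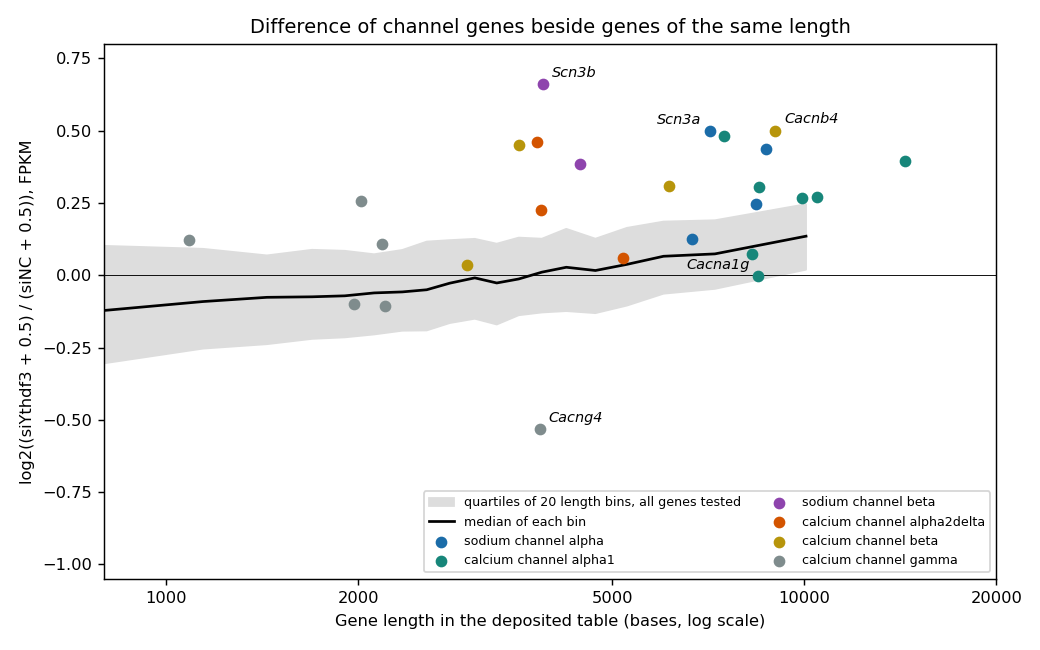
Log2 ratio of each measured channel gene (points, coloured by class) against its length in bases (log scale), over the median (line) and quartiles (grey) of all genes tested in 20 length bins. The bin medians reach 0.14 in the longest bin. Most channel genes lie above the grey band, with Cacng4 below it and Cacna1g inside it near its lower edge.

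Partners of the channels were looked at in 6 lists. The first held 7 scaffold genes of the axon and its initial segment, where sodium channels are anchored. These were Ank2, Ank3, Nfasc, Nrcam, Sptbn1, Sptbn4 and Trim46. All were measured, with a median log2 ratio of 0.33 and 7 intervals above 1, against 20% of all genes tested. Long genes gather more reads at a given FPKM, so their intervals exclude 1 at smaller ratios. Nfasc, an adhesion protein of the segment, was at 12.6 FPKM in siYthdf3 against 8.12 FPKM in siNC (ratio 1.55, interval 1.46 to 1.66), and Trim46, which organises its microtubules, was at 8.22 FPKM in siYthdf3 against 6.05 FPKM in siNC. Ank3, which encodes ankyrin-G, the anchor itself, was at 27.6 FPKM in siYthdf3 against 21.4 FPKM in siNC (ratio 1.29, interval 1.251 to 1.33). The 6 genes that tether calcium channels at the active zone had a median of 0.36, led by Pclo at 0.53, Erc2 at 0.46 and Rims1 at 0.44. Of their intervals 5 lay above 1, again against 20% of all genes tested. The median of sodium channel genes was 0.41. Genes of both lists are long, and with the length trend removed the medians were 0.20 for the scaffolds and 0.26 for the tethers, against 0.34 for sodium channel genes.

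Other lists of partners had lower medians, apart from the sodium leak channel complex. The 4 FGF homologous factors, which bind the tail of sodium channels, had a median log2 ratio of -0.03, with Fgf14 at 0.42, Fgf11 at -0.22 and Fgf12 at -0.15. The RGK proteins, which inhibit calcium channels, had a median of -0.22 over 3 measured of 4, with Rem2 at 0.30, Rrad at -0.27 and Gem at -0.22, and no interval excluded 1. The complex of the sodium leak channel had a median of 0.32 over 2 measured genes, Nalf1 at 0.44 and Unc79 at 0.21. Both intervals lay above 1, against 20% of all genes tested. Below the filter, Unc80 had a ratio of 1.38 (interval 1.06 to 1.81) and Nalcn itself one of 0.897 (interval 0.627 to 1.29). The 6 measured of 9 other partners had a median of 0.04, with Bace1 at 0.22, Prrt2 at -0.16 and Nedd4l at 0.04.

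With the length trend left in, the neuronal markers of the same libraries differed by about as much as the channel genes. Their median log2 ratio was 0.26 over 10 genes, from -0.06 to 0.51. Intervals lay above 1 for 7 and below 1 for 1, against 20% and 22.2% of all genes tested. Of the 26 channel genes 14 lay above that median and 12 below it, and with log2 ratios centred on it the member median was 0.01. Scn3b was then at 0.41, Scn3a at 0.24 and Cacng4 at -0.79. The neuronal markers were shorter genes, with a median of 2252 bases against 5666 bases for the measured channel genes. With the length trend removed, the median log2 ratio was 0.28 for the neuronal markers and 0.21 for the channel genes. The cycling cell markers had a median of -1.01, with 6 of 6 intervals below 1, against 22.2% of all genes tested. Their part in the values of the channel genes was not tested.

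**Figure D5:**
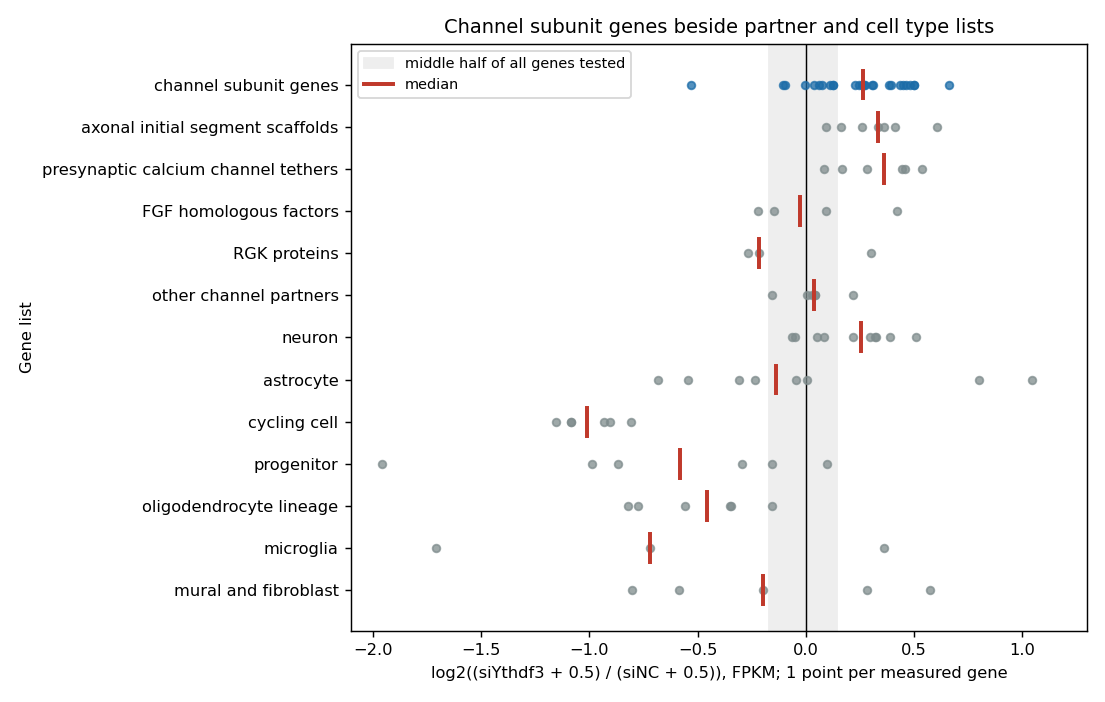
Log2 ratio of each measured gene (points) and the median (red bar) for the channel subunit genes, the lists of their partners and cell type marker lists; the grey band holds the quartiles of all genes tested. The channel genes centre on 0.26, the neuronal markers on 0.26 and the cycling cell markers on -1.01.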

How the data were processed

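Messenger RNA was measured in 1 siYthdf3 and 1 siNC library of rat cortical neurons, told apart by sample title. RNA (1 ug) went into a kit with molecular identifiers of 12 bases, and was read as pairs of 150 bases, per the labels' protocols. The submitters' processing notes name, without roles, StringTie 2.1.4, STAR 2.7.6a, Subread 1.5.1, featureCounts, fastp 0.23.2 and edgeR 3.40.2. Strand use, collapsing by identifier, genome build and annotation are nowhere stated in the labels or headers. Per the file headers, the authors deposited gene lengths and FPKM values. Reads per gene were recovered from them, because multiplying both gave whole steps of 1 size in each library (100% of values, to within 0.05 of a read).

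The measure was log2 of siYthdf3 over siNC after adding 0.5 FPKM, for genes that averaged 1 FPKM or more. Intervals are exact 95% Clopper-Pearson intervals of a gene's share of reads in siYthdf3, or Poisson intervals for a level, and cover counting error only. A count of 0 allows 3 reads. The length trend was the median over 20 bins. With 1 library per group no test was possible, and 1.5-fold was the rule of size. Members that pass the filter are given with values, others by range or when their interval excludes 1, and partner lists by the 3 measured members furthest from 0. Values of some members are not reported here. The promoters shown and the isoform pairs were chosen after values were seen. The members and lists were chosen with earlier results of these data known. The lists of microglia, mural and fibroblast, striated muscle and sensory neuron markers had median log2 ratios of -0.72, -0.20, -0.08 and 0.03. Fam155a, Dcn and Myog were not matched. The calculation was tested on simulated data. Software was scipy 1.17.1, numpy 2.4.6, pandas 2.3.3 and matplotlib 3.10.9 under Python 3.11.15.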

Additional observations from a re-analysis of the deposited data

How the results depend on the processing

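The member median log2 ratio stayed between 0.12 and 0.34 under 10 of the alternatives, which were pseudocounts of 0.1 and 1 FPKM, 3 other filters, removal of the length trend, equal read depth, median centring, TPM and a rescaling that leaves out mitochondrial genes and the 20 most abundant. It was 0.12 with no filter on low values, where all 40 members enter. Centring on the neuron marker median, chosen after seeing the data and run with the length trend left in, gave 0.0063. The early minus mature difference lay between 0.20 and 0.34 under all alternatives run. At 1.5-fold, 2 members were higher with a pseudocount of 0.1 FPKM and in TPM, and 0 with neuron centring or a 2-fold rule, while 9 were higher at the lowest fold tried (log2 0.32). The count of lower members was 1 with neuron centring and 1 at that lowest fold. The difference of pore-forming and auxiliary medians turned to -0.074 with the length trend removed and to -0.11 without gamma genes. Without a filter the sodium channel alpha median was 0.11 and the sodium channel beta median 0.26. The gamma median, close to 0, turned to -0.21 at a mean of at least 5 FPKM and to -0.012 with thinned reads. With neuron centring the class medians were 0.084 (sodium alpha), 0.015 (calcium alpha1), 0.27 (sodium beta), -0.031 (alpha2delta), 0.12 (calcium beta) and -0.25 (gamma). Neuron centring shifts the median of all genes to -0.27 and makes 11.0% of genes at least 1.5-fold lower and 0.957% higher. Of 271 alternative values of single genes, 248 stayed within their counting interval. The log2 ratio of 9 genes changed sign under some alternative: Cacng7, Scn1a, Scn8a, Cacng2, Cacna2d2, Cacna2d3, Cacnb3 and Cacna1h fell below 0 with neuron centring, Cacnb3 also with thinned reads (-0.044) and Cacna1h also with the length trend removed (-0.024), and Cacna1g, near 0, turned positive in TPM (0.043) and with median centring (0.0083). No paired analysis was possible because each group has 1 library and the replicate numbers only name them. Differences between samples could not be measured, and Cacng2, Cacng3 and Cacng5, with under 100 reads in siNC, are the least precise.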
